A study of Mus musculus with 2 samples.

Results

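Stmn2/Hapln1/Tmigd1-positive fibroblasts are a set of collagen-expressing cells of the mouse large intestine that were selected here on their own RNA. A barcode (the tag of 1 droplet) counted as a fibroblast-like cell when it held at least 1000 UMIs (unique molecular identifiers, 1 per captured transcript), at least 500 genes, at most 10% mitochondrial UMIs, no UMI of Ptprc (the leukocyte antigen CD45) or of the chemokine Cxcl9, and at least 1 UMI of the collagens Col1a1 and Col3a1. It was a gated cell when its UMIs of Stmn2, Hapln1, Tmigd1 and Cck summed to at least 3. The name lists genes of this rule, and a gated cell need not hold a UMI of each. The rule found 4415 gated cells among 25311 fibroblast-like cells and 30092 barcodes. Of these, 3347 came from the library named ff and 1068 from the library named GF. Because Stmn2 and Cck were low in GF, the cells with at least 2 UMIs of Hapln1 and Tmigd1 together were also taken, and they numbered 1886 in ff and 1523 in GF.

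The study sorted mesenchymal cells without CD45, EpCAM (epithelium) and CD31 (endothelium) and with gp38, the podoplanin surface protein of stromal cells, and profiled them with droplet sequencing of transcript 3′ ends. The series' text places them in the colon of adult mice over 8 weeks old and of germ-free mice. The ff library came from C57BL/6 mice and the GF library from Balb/c mice, and ff is an abbreviation that the labels leave unexplained. There was 1 library per group, so strain, microbial status and library cannot be told apart, no difference has a replicate check, and no test was made. The libraries held 119866589 and 105331294 UMIs in 13704 and 16388 barcodes, with medians of 8685 and 6147.5 UMIs a barcode, and 55 barcode sequences occurred in both (15 gated in ff, 6 in GF). The sources used here do not give the number of animals behind a library.

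Fibroblasts of the colon make the collagen scaffold under the epithelium, and subsets of them supply the crypts with WNT, BMP and growth factor signals from distinct layers of the wall. Stmn2 encodes a stathmin, a protein that binds tubulin and is best known from the growth cones of neurons. Hapln1 encodes a link protein that fastens proteoglycans to hyaluronan, Tmigd1 an immunoglobulin-type adhesion protein of the cell surface, Cck the gut hormone and neuropeptide cholecystokinin, and Aldh3a1, a marker not used for selection, an aldehyde dehydrogenase.

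The 4 selecting genes lie on 4 chromosomes of mm10 in the GENCODE vM21 annotation: Stmn2 at chr3:8509360-8561606 (plus strand), Hapln1 at chr13:89539796-89611652 (plus), Tmigd1 at chr11:76902159-76916587 (plus) and Cck at chr9:121489824-121495694 (minus). Aldh3a1 lies at chr11:61207537-61218421 (plus). The 150 bases directly upstream of the RefSeq starts (GRCm38.p6, the assembly of mm10) are shown for the 3 selecting genes found in the promoter table, as the sequences beside which these genes are read. Both strands were searched for 4 motifs, and capitals mark the matches. CACGTG is an E-box, TGCGTCA resembles the element bound by CREB and AP-1 factors, TGAGTCA is the AP-1 element, and TATAAA is the TATA box.
Cck (chr9:121495695-121495844, minus strand): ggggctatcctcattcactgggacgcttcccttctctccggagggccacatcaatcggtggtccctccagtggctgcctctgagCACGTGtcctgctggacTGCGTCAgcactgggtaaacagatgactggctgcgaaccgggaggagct
Hapln1 (chr13:89540486-89540635, plus strand): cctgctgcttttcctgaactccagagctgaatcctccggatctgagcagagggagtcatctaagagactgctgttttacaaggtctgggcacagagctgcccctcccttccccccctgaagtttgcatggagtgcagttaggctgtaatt
Tmigd1 (chr11:76902009-76902158, plus strand): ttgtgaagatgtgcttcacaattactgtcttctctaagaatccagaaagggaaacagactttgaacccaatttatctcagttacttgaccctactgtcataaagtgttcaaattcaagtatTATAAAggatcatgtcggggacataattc
Tmigd1, a second start (chr11:76890970-76891119, plus strand): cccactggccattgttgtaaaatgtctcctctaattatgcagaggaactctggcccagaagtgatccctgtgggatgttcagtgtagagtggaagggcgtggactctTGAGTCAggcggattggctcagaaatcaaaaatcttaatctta
The Cck window held CACGTG and TGCGTCA, which 4.30% and 1.32% of 32851 windows of the same length held. TATAAA stood in the Tmigd1 window whose start is also the GENCODE start, and in 7.57% of windows. The other Tmigd1 window held TGAGTCA, found in 2.84% of windows. None of the 4 motifs was in the Hapln1 window, whose start lies inside the GENCODE gene.

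Gated cells made up 27.4% of ff fibroblast-like cells (95% exact interval 26.6 to 28.2) and 8.16% of GF fibroblast-like cells (7.70 to 8.64); like every interval here, these cover counting error only. The Hapln1 and Tmigd1 rule alone gave 15.4% (14.8 to 16.1) and 11.6% (11.1 to 12.2). Depth moved with these shares: gated ff cells held a median of 10573 UMIs against 8273.5 in the other ff fibroblast-like cells, and the GF medians were 7772 and 6578. With each cell thinned to 2000 UMIs, the 4-gene shares were 9.51% and 1.05%, and the shares by Hapln1 and Tmigd1 were 3.24% (2.93 to 3.57) in ff and 2.89% (2.61 to 3.19) in GF. The 234 ff and 406 GF cells under 2000 UMIs were left out of that thinning. At one depth the intervals of the libraries lay apart by the 4 genes (8.99 to 10.0 and 0.877 to 1.24) and overlapped by Hapln1 and Tmigd1. Lymphocytes were taken as filtered barcodes with UMIs of Ptprc and of B or T cell genes and no UMI of Col1a1 or Col3a1. None of 35 ff lymphocytes (median 3515 UMIs, upper bound 10.0%) reached the 4-gene minimum. None of 680 GF lymphocytes did (median 2644 UMIs, upper bound 0.541%), and these held 1 UMI each of Stmn2, Hapln1 and Aldh3a1. Barcodes with stray collagen RNA were left out by that definition, so these counts cannot measure background RNA.

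**Figure D1:**
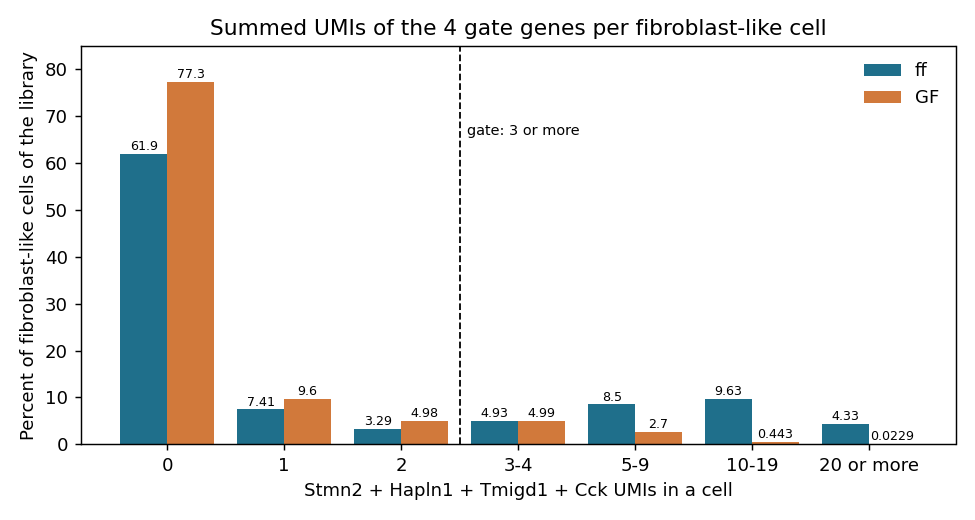
Percent of fibroblast-like cells (vertical axis) by the summed UMIs of Stmn2, Hapln1, Tmigd1 and Cck in the cell (horizontal axis, in bins of unequal width), for ff and GF; the dashed line marks the minimum of 3. Most cells held none of these UMIs (61.9% in ff, 77.3% in GF), and sums of 10 to 19 were found in 9.63% of ff and 0.443% of GF cells.

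The summed UMIs ran to 71 in ff and to 24 in GF. In ff 402 cells held 2 UMIs, 602 held 3 to 4, 1039 held 5 to 9 and 1177 held 10 to 19, in bins of unequal width. The GF numbers were 652, 653, 354 and 58. Cells just outside the minimum, with a sum of 2, and just inside it, with a sum of 3, were set side by side for genes the rule did not use. Levels are given in CPM (counts per 1000000 UMIs of the summed cells). Edil3, a secreted integrin ligand, stood in ff at 377 CPM (358 to 397) at a sum of 2 and 445 (423 to 468) at 3. In GF it stood at 332 (316 to 349) and 384 CPM (362 to 406). Cells with a sum of 0 held 65.9 CPM of it in ff and 71.7 in GF. Sfrp2, a secreted frizzled-related protein that binds WNTs, stood in GF at 287 CPM (272 to 302) at a sum of 2, 314 (295 to 335) at 3 and 47.0 at 0. In ff it stood at 98.3 CPM (88.6 to 109) at a sum of 2 and 142 (130 to 156) at 3. The WNT inhibitor Wif1 stood in ff at 11.1 CPM (8.00 to 15.01) at a sum of 2 and 2.11 (0.846 to 4.34) at 3. The endothelin receptor Ednrb stood in GF at 19.8 CPM (16.1 to 24.1) and 3.28 (1.57 to 6.03), and in ff at 12.4 (9.13 to 16.5) and 18.3 (14.0 to 23.6). Across the minimum, the intervals thus lay apart for Edil3 in both libraries, for Sfrp2 and Wif1 in ff and for Ednrb in GF. They overlapped for Sfrp2 in GF and for Ednrb in ff.

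The values of the selecting genes are given as a description, since they chose the cells. Stmn2 stood at 779 CPM (770 to 788) in gated ff cells and 98.1 CPM (91.7 to 105) in gated GF cells, and at 10.4 and 2.02 CPM in the other fibroblast-like cells. A Stmn2 UMI was seen in 93.5% of gated ff cells and in 22% of gated GF cells. Stmn2 was thus detected in most ff cells and in few GF cells of the same gate.

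Hapln1 had the opposite order, at 205 CPM (201 to 210) in gated ff cells and 424 CPM (411 to 438) in gated GF cells, and was seen in 65.5% and 90.9% of them. Tmigd1, of which 16.4% of gated ff cells held a UMI, stood at 25.8 CPM in gated ff and 41.5 CPM in gated GF cells. These orders follow in part from the sum rule, since a GF cell with little Stmn2 needs more of the other genes to enter. Over all fibroblast-like cells, where no gate acts, Hapln1 stood at 74.3 CPM (72.8 to 75.9) in ff and 63.7 (62.1 to 65.3) in GF, Tmigd1 at 9.92 and 6.97, Stmn2 at 268 and 11.3, and Cck at 15.4 and 1.64. The libraries were therefore close in Hapln1 and far apart in Stmn2 and Cck.

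Cck was found in 15% of gated ff cells, with 1587 UMIs or 41.7 CPM, and in 2.81% of gated GF cells, with 120 UMIs or 13.3 CPM. The GF value rested on few cells: 68 of the 120 UMIs lay in 8 gated cells that carried Kit and Ano1, markers of the pacemaker cells of the gut wall. Without those cells and 11 cells with endothelial markers, GF Cck was 5.89 CPM (4.401 to 7.73) and ff Cck, left with 3287 cells, was 41.6 CPM (39.5 to 43.7). Aldh3a1, which the rule did not use, stood at 45.2 CPM (43.1 to 47.4) in gated and 3.90 CPM (3.47 to 4.37) in other ff cells, and at 12.6 (10.4 to 15.1) and 2.38 CPM (2.06 to 2.73) in GF. It was thus higher in gated cells of both libraries, with intervals apart. Aldh3a1 had been listed as a marker of this group with earlier results of these data known, so this is a description.

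**Figure D2:**
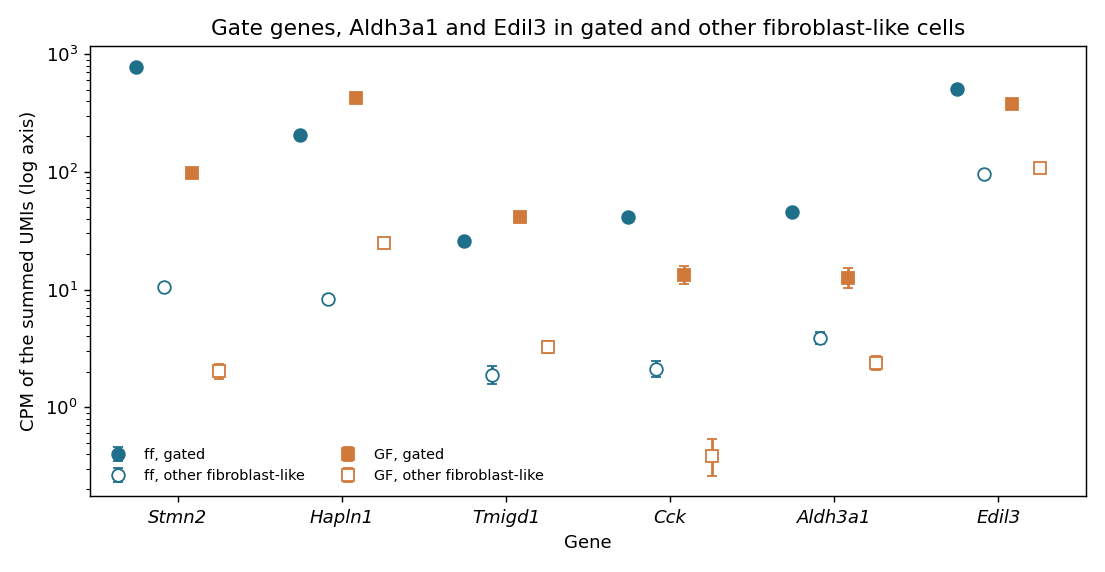
CPM of the summed UMIs (log axis) of the 4 selecting genes, Aldh3a1 and Edil3 in gated (filled) and other (open) fibroblast-like cells of ff (circles) and GF (squares), with exact 95% counting intervals. The 4 selecting genes are higher in gated cells by construction. Aldh3a1 and Edil3, which were not used for selection, are also higher in both libraries. Aldh3a1 had been listed as a marker of this group with earlier results of these data known.

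Co-detection was counted in fibroblast-like cells thinned to 2000 UMIs, without those that carried endothelial or Kit and Ano1 markers. Cells with a UMI of 1 selecting gene held the others more often than cells without it, except for Stmn2 and Cck in GF. Some intervals covered the share in cells without the gene. In ff, Tmigd1 was seen in 3.03% (1.23 to 6.14) of 231 cells with Cck and in 1.61% of those without. In ff, Hapln1 was seen in 27.1% (25.3 to 28.9) of 2379 cells with Stmn2 and in 4.82% of the 9395 without. Tmigd1 was seen in 4.96% (4.12 to 5.91) and 0.798% of the same cells, and Cck in 4.33% (3.55 to 5.23) and 1.36%. In GF, Hapln1 was seen in 20.5% (14.4 to 27.9) of 151 cells with Stmn2 and 9.74% of the 12382 without. Tmigd1 was seen in 2.99% (2.11 to 4.099) of 1237 GF cells with Hapln1 and in 0.859% of the others. In GF cells with Stmn2, Tmigd1 was seen in 1.99% (0.412 to 5.70), against 1.06% of those without. No Stmn2 UMI fell in the 20 thinned GF cells with Cck, a number that allows a share of up to 16.8%, against 1.21% of cells without Cck.

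The label was checked against marker lists. Gated cells expressed fibroblast markers: Pdpn, the gene of the sorting antigen gp38, stood at 285 CPM among ff cells and 294 CPM among GF cells, and Dcn, a small collagen-binding proteoglycan, at 13460 and 13628 CPM. Their 8 measured fibroblast markers, which leave out the 2 collagens of the rule, summed to 20083 CPM among ff cells and 19315 in GF, against 19501 and 20403 in the other fibroblast-like cells, and Dcn made up most of the sums. Pdgfra, a PDGF receptor of fibroblasts, was lower in gated cells, at 302 against 644 CPM in ff and 315 against 464 CPM in GF, as was the matrix protein Dpt (log2 ratios −0.65 and −0.52). Several neuronal and endocrine markers were at 0. Of 11 enteric neuron markers, 3 were at 0 in gated ff cells and 5 in gated GF cells, among them Elavl4 and Nefl in both, and the list summed to 7.06 CPM in ff and 7.34 in GF, against 17.1 and 15.8 in the other cells. Of 11 enteroendocrine markers, Chga, Neurod1, Scg2, Insm1 and Tph1 were at 0 in the gated cells of both libraries, and the list summed to 3.52 and 4.34 CPM, against 2.35 and 3.35 CPM in the other cells. The hormone gene Sct (secretin) made up most of that sum, at 2.91 against 1.66 CPM in ff and 3.34 against 2.14 CPM in GF. The 16 markers of Foxl1-high subepithelial cells summed to 1062 CPM in gated and 2507 CPM in other ff cells, and to 927 and 1641 CPM among GF cells. The 14 adventitial and submucosal markers summed to 1963 and 3523 CPM among ff cells and to 2270 and 4220 CPM among GF cells. Gated cells were thus below the others in both sets and held neither at 0.

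Endothelial markers did move with the gate, and the pacemaker markers Kit and Ano1 were higher in gated cells of GF only. Kit stood at 12.1 CPM in gated and 5.15 CPM in other GF cells, and at 1.92 and 2.41 CPM in ff. Ano1 stood at 15.7 and 8.45 CPM in GF, and at 2.18 and 11.03 CPM in ff. The 6 lymphatic endothelial markers summed to 62.1 CPM in gated and 39.3 in other ff cells, and to 115 and 26.4 CPM among GF cells, and none of them was at 0. Most of the signal lay in few gated cells, those with at least 2 UMIs of 6 endothelial genes (53 in ff, 11 in GF) or at least 3 of Kit and Ano1 (7 and 8). Without them the sums were 4.45 and 13.1 CPM. The 6 genes were Mmrn1, Prox1, Flt4, Pecam1, Cdh5 and Cldn5. Mmrn1, Prox1 and Flt4 are also in the lymphatic list, so their fall follows from the removal. Lyve1 and Ccl21a, which did not choose these cells, fell from 9.53 and 31.0 to 0.402 and 0.643 CPM in ff. In GF they fell to 0.567 and 6.91 CPM, and Ccl21a kept a log2 ratio of 1.87. Mmrn1, a lymphatic endothelial secreted protein, stood at 165 CPM in the 120 GF cells that the 4 genes took and Hapln1 with Tmigd1 did not, and at 0.570 CPM in the GF cells taken by Hapln1 and Tmigd1. Kit stood at 96.5 and 1.06 CPM in the same cells. Lyve1, the hyaluronan receptor of lymphatic vessels, stood at 23.9 CPM in gated and 4.86 CPM in other GF cells (log2 ratio 2.09), while the cells taken by Hapln1 and Tmigd1 were lower than those outside them (−2.54). Of 3663 UMIs of the haemoglobin gene Hbb-bs in gated ff cells, 2978 lay in 1 cell. The part of these cells in the results below was not tested, except where a value without them is given.

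The share of gated cells was counted among each cell's 15 nearest neighbours, found per library without the 4 selecting genes. In ff, 78.5% of the neighbours of a gated cell were gated, against 10.4% of the neighbours of other cells. In GF the shares were 28.9% and 6.86%. For the cells taken by Hapln1 and Tmigd1 they were 54.8% and 9.27% in ff and 39.6% and 8.99% in GF. Gated cells therefore lay near each other in the RNA of other genes. These shares rise with the frequency of gated cells, which was 27.4% in ff and 8.16% in GF by the 4 genes. By Hapln1 and Tmigd1 it was 15.4% and 11.6%. Which library held gated cells more densely for their frequency was not tested.

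The clusters, likewise made without the selecting genes, divided the gated ff cells. The first held 37.4% of them; it had 1456 cells, was 86.1% gated and was led by Spock3, Cntnap4, Ddah1 and Edil3 besides Hapln1 and Stmn2. The next held 22.4%; it had 938 cells, was 80.1% gated and was led by Cck, Sfrp2 and Dner. A further 11.4% of gated ff cells lay in a cluster led by the fatty acid receptor Cd36 (52.0% gated), 9.50% in a cluster led by Col28a1 and Cxcl13 (29.5% gated) and 7.95% in a cluster led by Cx3cr1 and noncoding and zinc finger genes (55.9% gated, median 7810.5 UMIs). A cluster of 147 ff cells with a median of 15978 UMIs, led by haemoglobin genes, Sfrp4 and Dpp4, was 63.9% gated and held 2.81% of gated cells. In GF the largest part, 31.3% of gated cells, lay in a cluster led by Cxcl13, a chemokine that draws B cells, of which only 15.1% was gated. The GF clusters with the highest gated shares among the larger ones were led by Tmigd1, Ephb1 and Aldh3a1 (36.6% gated) and by Cdh22, Edil3 and Hapln1 (21.7% gated). Cluster genes are named to describe the clusters, which were built from them.

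Gated cells differed among themselves by which selecting gene they carried. Cells were compared at 2000 UMIs each, leaving out the endothelial and Kit/Ano1 cells, as a description after their values were seen. In ff, the 195 gated cells with a Cck UMI held no Cd36 UMI, and the 3092 others stood at 71.3 CPM of Cd36. Cd81, a tetraspanin of the cell surface, had the reverse order, at 285 CPM in the cells with Cck and 84.6 CPM in the others. In GF, the 111 gated cells with a Stmn2 UMI stood at 203 CPM of Cd36 and 514 CPM of the smooth muscle actin Acta2, against 32.0 and 92.3 CPM in the 937 without. Myh11, another smooth muscle gene, stood at 117 against 34.7 CPM in the same GF cells. In ff the order of Myh11 was reversed, at 30.04 CPM in 2214 gated cells with Stmn2 and 66.17 CPM in 1073 without. Aldh1a2, an enzyme that makes retinoic acid, was at 4.50 CPM in the GF cells with Stmn2 and 76.8 CPM in those without. The first value rests on too few counts in 111 thinned cells to give a level.

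Against the other fibroblast-like cells, gated cells were compared for 13374 genes with at least 50 UMIs in each library, leaving out the 8 genes of the rule. A log2 ratio is taken of summed CPM after adding 1 CPM, which understates low genes, and a gene was called at a ratio of at least 2-fold. In ff, 140 genes (1.05%) were higher in gated cells and 519 (3.88%) lower. In GF, 95 genes (0.71%) were higher and 428 (3.2%) lower. In both libraries at once, 61 genes (0.456%) were higher and 286 (2.14%) lower. Gated cells were thus set apart by more genes that were low than high.

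The genes highest in gated cells of both libraries were led by Aldh3a1, whose values are given above. Edil3 stood at 508 CPM (501 to 515) in gated and 96.2 CPM (94.0 to 98.4) in other ff cells, and at 379 (366 to 392) and 109 CPM (107 to 111) in GF. It lies on the plus strand at chr13:88821472-89323223, on the same chromosome as Hapln1. Sfrp2 stood at 172 and 30.03 CPM among ff cells and at 310 and 81.3 CPM among GF cells. Spock3, a testican proteoglycan of the extracellular matrix, stood at 40.6 and 2.30 CPM in ff (log2 ratio 3.66) and at 15.7 and 4.71 CPM among GF cells (1.55). The rest of the 15 by the fixed rule were Aldh3a1, Cntnap4 (a neurexin-family adhesion protein), Fam19a1, Il13ra2 (the decoy receptor of interleukin-13), Plxdc1, Ddah1 (which breaks down methylated arginines), Cldn1 (a tight junction claudin), Myo16, Ndst3 (a heparan sulfate modifying enzyme), Chmp4c, Epha7 (an ephrin receptor) and Gipc2. Their log2 ratios ran from 1.75 for Ndst3 to 3.24 for Aldh3a1 in ff and from 1.13 for Gipc2 to 2.01 for Aldh3a1 in GF. Cldn1 stood at 57.8 CPM in gated and 11.2 CPM in other ff cells, and at 48.9 and 18.1 CPM among GF cells. Epha7 stood at 28.5 and 7.21 CPM among ff cells and at 50.3 and 16.3 CPM among GF cells.

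The genes lowest in gated cells held markers of other stromal layers. Ebf1, a transcription factor of stromal and B-lineage cells, stood at 48.5 CPM (46.3 to 50.7) in gated against 378 CPM (373 to 382) in other ff cells, and at 61.3 (56.3 to 66.6) against 395 CPM (391 to 400) in GF. Fgf9, a fibroblast growth factor, stood at 5.23 against 55.5 CPM among ff cells and 2.558 against 38.5 CPM among GF cells. Ednrb, an endothelin receptor, stood at 13.2 against 107 CPM among ff cells and 5.78 against 77.7 CPM among GF cells. Wif1, a secreted WNT inhibitor and marker of Foxl1-high cells, stood at 4.12 against 42.1 CPM and 1.56 against 13.6 CPM. Dpp4, a surface peptidase of adventitial fibroblasts, stood at 1.84 against 16.2 CPM and 2.67 against 23.8 CPM. The others by the rule were Ifi207, Kcnk2, Ackr4 (a decoy receptor of chemokines), Myoc, Smoc2, Cilp, Cmah, Tac1 (the precursor of substance P), Fst (which binds activins) and Galnt15. Over these 15 genes the log2 ratio lay between −3.27 and −2.45 in ff and between −3.54 and −2.46 in GF. Ifi207 belongs to a family of near-identical genes, so its reads are uncertain.

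**Figure D3:**
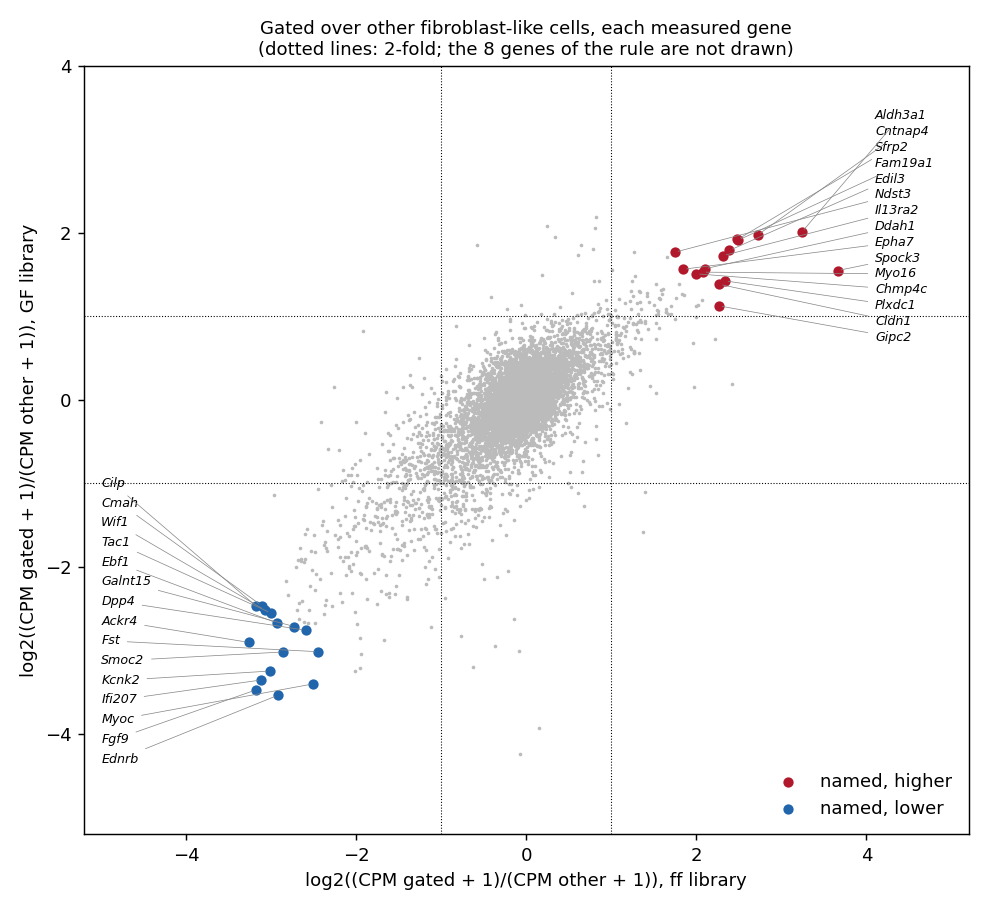
Log2 ratio of gated over other fibroblast-like cells in ff (horizontal axis) and GF (vertical axis) for 13374 genes (grey), with the named genes higher (red) and lower (blue) in both; dotted lines mark 2-fold. The lower group of 286 genes is larger than the higher group of 61, and the named genes lie between 1.75 and 3.66 or between −3.27 and −2.45 in ff.

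The secreted signals of gated cells were then read by role, beside the median log2 ratio of all measured genes, −0.0562 in ff and 0.0171 in GF. Here and in the lists below, counts of members called in both libraries stand beside 0.456% of all genes higher and 2.14% lower. At the first share, short lists hold no higher gene. Of 12 WNT ligands and R-spondins measured, none was at least 2-fold higher in both libraries and Wnt5a and Wnt11 were lower (list medians −0.19 and −0.10). Wnt4 stood at 354 CPM in gated and 133 in other ff cells, and at 383 and 202 in GF, which passed 2-fold in ff only. Wnt5a, a non-canonical WNT, stood at 47.4 against 163 CPM among ff cells and 37.5 against 101 CPM among GF cells. Of 7 WNT inhibitors, Sfrp2 was higher and Sfrp4 and Wif1 lower in both libraries. None of 8 WNT response genes, which include Axin2, passed 2-fold in both.

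Among 14 BMP ligands and 12 antagonists no member was higher in both libraries, a count that the share over all genes (0.456%) also gives for lists of this size. Bmp4 stood at 859 CPM in gated cells of each library, against 666 CPM in other ff and 629 CPM in other GF cells. Gdf6 and Gdf10 were lower in both (Gdf10 log2 ratios −2.97 and −1.14). Of the antagonists 4 were lower in both, among them Chrdl1, Fst and Nbl1, with Fst at 3.20 against 21.9 CPM among ff cells and 7.12 against 64.6 CPM among GF cells. Grem1, a BMP antagonist of the crypt base, stood at 177 against 199 CPM among ff cells and 100.7 against 100.4 CPM among GF cells. Among 18 response genes of BMP and TGF-β, Ccn2, a matricellular protein, was higher at 772 against 263 CPM among ff cells and 577 against 276 CPM among GF cells, and Tgfbi and Ltbp2 were lower. Of 13 hedgehog genes, the co-receptors Cdon and Gas1 were lower in both, and Foxl1, the transcription factor of subepithelial telocytes, stood at 7.06 against 17.7 CPM among ff cells and 9.34 against 15.1 CPM among GF cells.

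Of 35 growth factors, Hgf and Pdgfd were higher in both libraries and Fgf9, Fgf18, Nrg1, Angptl1 and Ptn lower, against 0.456% and 2.14% of all genes. Hgf, hepatocyte growth factor, stood at 171 CPM in gated and 63.0 CPM in other ff cells, and at 153 and 62.4 CPM among GF cells. Pdgfd, a ligand of PDGF receptors, stood at 51.2 and 17.2 CPM among ff cells and at 38.9 and 18.7 CPM among GF cells. Nrg1, an EGF-family ligand of the epithelium, stood at 36.6 against 78.4 CPM among ff cells and 8.45 against 37.6 CPM among GF cells. Of 20 neurotrophic factors and receptors, 3 were lower, among them the neurotrophin receptors Ntrk2 and Ntrk3, and none higher, with list medians of −0.75 in ff and −0.57 in GF.

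Immune signals were divided. Of 19 chemokine genes, Ccl2, Ccl7, Ccl11, Ackr2 and Ackr4 were lower in both libraries, against 2.14% of all genes. None was higher, a count that the share over all genes (0.456%) also gives for a list of this size. Ccl11, the eosinophil chemokine eotaxin, stood at 151 against 464 CPM among ff cells and 184 against 916 CPM among GF cells. Cxcl13 stood at 34.6 against 91.6 CPM among ff cells and 179 against 211 CPM among GF cells. Of 29 cytokine and sensing genes, Tnfsf13b, the B-cell survival factor BAFF, was higher, at 221 against 73.0 CPM among ff cells and 332 against 133 CPM among GF cells, and Il33 with its receptor Il1rl1 was lower. Il33, an alarmin cytokine, stood at 16.99 against 92.6 CPM among ff cells and 16.9 against 105 CPM among GF cells. Among 14 complement genes C3 and C7 were lower, with C3 at 271 against 1297 CPM among ff cells and 522 against 1602 CPM among GF cells, while C4b stood at 823 against 313 CPM among ff cells and 848 against 441 CPM among GF cells.

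The lists around Stmn2 and Hapln1 were read next, beside the 1.05% of all genes higher in ff and 0.71% in GF, shares at which short lists hold no such gene. Of 12 measured stathmin and growth-cone genes other than Stmn2, none was higher in either library and Gap43, Basp1, Marcks and Map2 were lower in both. Stmn1 stood at 14.3 against 12.9 CPM among ff cells and 7.12 against 6.26 CPM among GF cells, and Stmn4 at 5.99 against 7.67 and 5.89 against 11.5 CPM. Of 7 neuropeptide and granule genes other than Cck, Tac1 and the enkephalin precursor Penk were lower in both. Of 12 genes of the hyaluronan matrix, the hyaluronan synthase Has1 and Tnc were lower in both: Has1 stood at 219 against 746 CPM among ff cells and 627 against 1476 CPM among GF cells. Vcan, the hyaluronan-binding proteoglycan versican, stood at 712 against 343 CPM among ff cells and 435 against 264 CPM among GF cells, past 2-fold in ff only. Of 17 aldehyde dehydrogenases, Aldh3a1 was higher and the retinaldehyde dehydrogenase Aldh1a1 lower. Aldh1a1 stood at 59.1 against 173 CPM among ff cells and 37.3 against 88.2 CPM among GF cells.

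Contractile, channel and basement membrane genes were called in part, and most members passed 2-fold in neither or 1 library. Over all genes, 0.456% were higher and 2.14% lower in both libraries. Of 20 contractile genes, Acta2, Myh11, Myl9, Mylk and Tagln were at least 2-fold lower in both libraries and none was higher (list medians −0.48 and −0.57). Of 24 ion channel genes, 6 were lower, among them Kcnn3, Kcnj8, Kcnk2, Kcnd3 and Kcne4 (medians −0.76 and −0.44). Kcnk2, a two-pore potassium channel, stood at 9.11 against 81.0 CPM among ff cells and 6.45 against 69.7 CPM among GF cells. Of 26 basement membrane genes, Col4a5, Lamb2, Nid1, Col6a3 and Col6a4 were lower, with Col6a3 at 180 against 612 CPM among ff cells and 67.7 against 373 CPM among GF cells. None of 7 fibrillar and related collagens passed 2-fold in both; Col12a1 stood at 364 against 324 CPM among ff cells and 344 against 208 CPM among GF cells.

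Of transcription factors of position and layer, the list with the most measured members, 3 of 61 homeobox, forkhead and related genes were higher and 11 lower in both libraries. Osr1, a zinc finger factor of mesoderm, stood at 189 against 62.6 CPM among ff cells and 537 against 233 CPM among GF cells. Prrx2 stood at 67.0 against 15.8 CPM and 66.6 against 29.7 CPM. Hoxd13, the most posterior member of the Hoxd cluster, stood at 29.96 against 14.0 CPM and 33.8 against 15.5 CPM. Hoxb2, Hoxb3, Hoxc6, Hoxc8, Hoxc10 and Hoxd8 were among those lower, as were Osr2, Sox6, Ebf1 and Ebf3. Of 25 genes of lipid uptake and cholesterol, Apoe, an apolipoprotein, was higher (927 against 328 CPM among ff cells, 2018 against 918 CPM among GF cells), and 2 genes, among them Idi1 of cholesterol synthesis, were lower. Of 19 prostaglandin genes, the thromboxane synthase Tbxas1 was higher and Ptgs1, Ptgis, Hpgd and Ptgfr lower. Lists of interferon-γ GTPases, MHC genes, immediate early and heat shock genes and proliferation genes held no gene past 2-fold in both libraries, against 0.456% of all genes higher and 2.14% lower, shares too small to read a result from these lists.

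**Figure D4:**
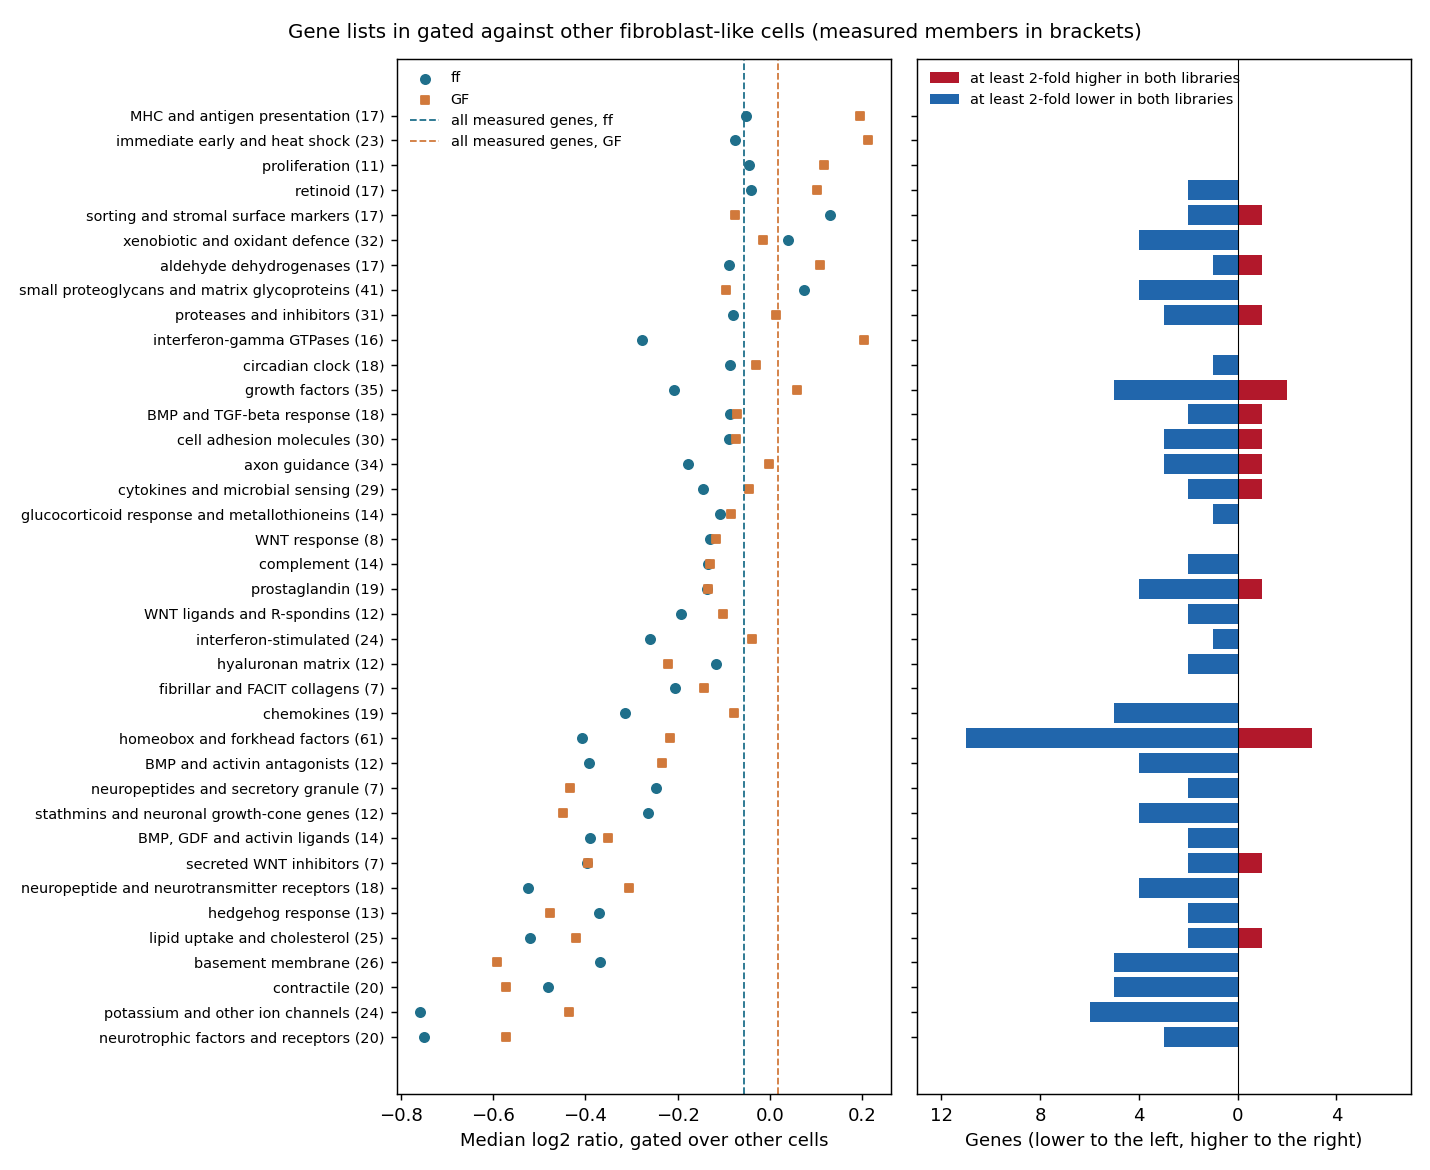
Left, median log2 ratio of gated over other cells for 38 gene lists in ff (circles) and GF (squares), with dashed lines at the medians of all measured genes; right, members at least 2-fold higher or lower in both libraries. The lowest medians are those of ion channels and neurotrophic genes in ff (−0.76 and −0.75) and of basement membrane genes in GF (−0.59), and homeobox and forkhead factors, the list with the most members (61), hold 3 genes higher and 11 lower.

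The cells taken by Hapln1 and Tmigd1 alone, a rule in which Stmn2 and Cck play no part, gave 56 genes higher and 316 lower in both libraries, among them 50 of the 61 and 249 of the 286. The rules take largely the same cells: 93.5% of the ff and 62.2% of the GF cells taken by Hapln1 and Tmigd1 were also in the 4-gene gate, so the agreement is not independent. The 15 higher and 15 lower genes named above kept the sign of their ratio in both libraries. Stmn2 itself was higher in these cells, at 754 CPM against 152 CPM outside them in ff and at 25.2 against 9.22 CPM among GF cells. Cck stood at 37.6 against 10.1 CPM among ff cells and at 2.85 against 1.46 CPM among GF cells. In GF these cells therefore carried little Stmn2 and Cck.

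Other subsets of fibroblast-like cells were set beside the gated cells. Of 11 subsets chosen by their own genes, those most like the gated cells in the log CPM of all genes were the Sfrp2/Cxcl13 cells (Pearson r 0.98 in ff and 0.99 in GF, across 14019 and 13679 genes, as a description), the Col6a5 lamina propria cells and the Cd36/Prdm1/Tbx3 lamina propria cells. Gates overlapped: 51.3% of ff and 19.5% of GF Sfrp2/Cxcl13 cells also reached the 4-gene minimum, which is 26.7% and 46.2% of the gated cells. Most gated cells were also Col6a5 lamina propria cells, 79.7% in ff and 77.3% in GF, which is 35.8% and 12.03% of those cells. That gate was broad and took 7454 of 12221 ff and 6866 of 13090 GF fibroblast-like cells. Col6a5 itself was lower in gated than in other fibroblast-like cells, with log2 ratios of −0.956 in ff and −2.38 in GF. Of 10 measured lamina propria markers, Apoe was at least 2-fold higher in both libraries and Procr lower. Of the Cd36/Prdm1/Tbx3 cells 52.4% in ff and 14.8% in GF were gated, which is 21.2% and 11.9% of the gated cells. Out of all fibroblast-like cells, this gate took 1352 in ff and 859 in GF, and the Sfrp2/Cxcl13 gate took 1740 and 2522. Against the Sfrp2/Cxcl13 cells outside the gate, 20 of 11527 genes (0.174%) were at least 2-fold higher in both libraries and 85 (0.737%) lower. Cd36 was among the higher ones, at 77.9 against 5.50 CPM among ff cells and 51.2 against 12.5 CPM among GF cells, with Spock3 and Cntnap4. Sfrp2, a gene by which these cells were chosen, was not higher in gated cells there, at 172 against 191 CPM in ff and 310 against 347 CPM in GF. In the same comparison Edil3 stood at 508 against 228 CPM in ff and 379 against 268 CPM in GF. Aldh3a1 stood at 45.2 against 4.89 CPM in ff and 12.6 against 7.03 CPM in GF, so both were under 2-fold in GF. Against the Cd36/Prdm1/Tbx3 cells, 148 of 10958 genes (1.35%) were higher and 277 (2.53%) lower. Sfrp2 stood at 172 against 3.404 CPM among ff cells and 310 against 33.7 CPM among GF cells in that comparison, and Grem1 at 177 against 26.01 and 101 against 16.0 CPM. Spock3 stood there at 40.6 against 5.45 CPM in ff, but in GF it was lower in gated cells, at 15.7 against 28.0 CPM. Against the Col6a5 cells, 45 of 12607 genes (0.357%) were higher, with Sfrp2, Aldh3a1 and Dner among those named by rank, and 245 (1.94%) lower. Ednrb and Fgf9 were lower in gated cells than in each of the 3 subsets. Ccl21a and Mmrn1, markers of lymphatic vessels, were also among the higher genes. Without the endothelial and Kit/Ano1 cells, Mmrn1 stood at 0.107 CPM in gated ff cells and 0 in gated GF cells, and Ccl21a at 0.643 and 6.91 CPM. Mmrn1 is among the genes by which those cells were left out, so its fall follows from the removal. The comparison with the subsets was not repeated without those cells.

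Gated GF cells were compared with gated ff cells for 12446 genes with at least 50 UMIs over both. In GF, 248 genes (1.99%) were at least 2-fold higher and 289 (2.32%) lower. With cells thinned to 2000 UMIs before selection, which left 1153 ff and 135 GF gated cells, 27 of the 248 and 80 of the 289 were called again. The 12 highest by the rule were C1rb, C1s2, Tpm3-rs7, Gbp2b, Lrat, Ifi202b, Ralgps2, Rbm46, Ucp2, Chodl, Slamf8 and Kcnk3. In the other fibroblast-like cells 10 of these were also at least 2-fold higher in GF, and Kcnk3 and Chodl were at log2 ratios of 0.997 and 0.51. The complement gene copies C1rb and C1s2 stood at 0.263 and 0.158 CPM among ff cells and at 106 and 87.5 CPM among GF cells, with log2 ratios of 6.40 and 6.26 inside the gate and 6.60 and 6.28 outside it. C1rb, C1s2, Tpm3-rs7, Gbp2b and Ifi202b have near-identical partner genes, so how reads were shared between copies is uncertain. Gbp2b had no UMI in gated ff cells, where a floor of 3 counts is 0.0788 CPM, and stood at 50.4 CPM among GF cells.

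Some ratios were larger inside the gate. Lrat, which esterifies retinol for storage, stood at 0.394 CPM in gated ff and 48.8 CPM in gated GF cells, and at 1.47 and 34.5 CPM in the others. Ucp2, a mitochondrial carrier, stood at 12.2 and 110 CPM inside the gate and at 28.9 and 124 CPM outside it. Chodl, a chondrolectin, stood at 1.23 and 15.9 CPM inside and 9.74 and 14.3 CPM outside. The Kcnk3 ratio of 2.77 was 0.61 without the endothelial and Kit/Ano1 cells, so it rested on those few cells. Whether the ratios inside and outside differ was not tested.

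Among the genes lowest in gated GF cells by the rule were Trim12a, Slc15a2, Nxf7, Mpp7, Rab6b, Isoc2b, Hmga1, Arhgap8, Pcdh9, Plac9b and Fam111a. All of these were also at least 2-fold lower in GF in the other fibroblast-like cells, with log2 ratios from −4.70 for Trim12a to −1.50 for Arhgap8. Trim12a and Slc15a2 had no UMI in gated GF cells (floor of 3 counts 0.334 CPM) and stood at 24.1 and 11.4 CPM in gated ff cells. Pcdh9, a protocadherin, stood at 60.7 and 7.12 CPM inside and 30.8 and 4.12 CPM outside. Arhgap8 was past 2-fold higher in gated than other cells in ff only, at 18.0 against 7.42 CPM among ff cells and 1.45 against 1.97 CPM among GF cells. Of the genes high in gated cells of both libraries, Aldh3a1, Spock3, Plxdc1 and Gipc2 were at least 2-fold lower in GF than ff gated cells (log2 ratios −1.77, −1.32, −1.75 and −1.12), and Ndst3 was higher (1.20).

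**Figure D5:**
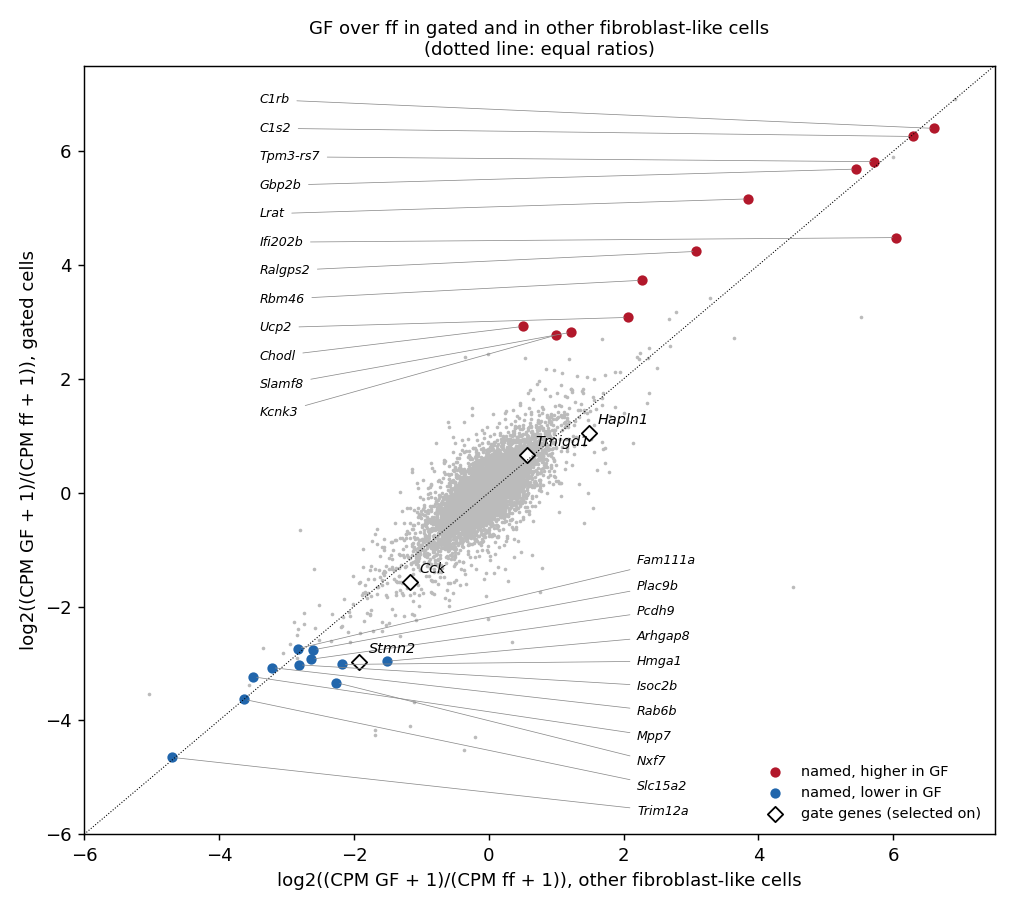
Log2 ratio of GF over ff in other fibroblast-like cells (horizontal axis) and in gated cells (vertical axis) for 12446 genes (grey), with named genes higher (red) and lower (blue) in GF; diamonds are the 4 selecting genes. C1rb, C1s2, Tpm3-rs7 and Gbp2b lie near the dotted line of equal ratios, and Lrat, Rbm46, Ucp2 and Chodl above it.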

How the data were processed

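The deposited matrices hold raw UMI counts per gene and barcode, made by the authors with Cell Ranger 6.0.0 on mm10, per the submitters' processing notes; no label or header read here names the annotation release. From these counts, cells were selected as described in the report, their UMIs summed per library and class, and CPM computed on the sums. Ratios are log2 of CPM plus 1 CPM, over genes with at least 50 UMIs in each library, or over the gated cells of both libraries for GF against ff. Intervals are exact 95% Poisson intervals for CPM and Clopper-Pearson intervals for shares; a count of 0 has a floor of 3 counts. With 1 library per group, no test was made.

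The members and gene lists were chosen with earlier results of these data known. Named genes are the 15 highest and 15 lowest by the mean log2 ratio over both libraries, with at least 100 UMIs in each and at least 2-fold in the same direction in each, and the 12 highest and 12 lowest of GF over ff; 5 members were named per list at most by rule, and any others were chosen after their values were seen. Some genes of these sets are not reported here. Mitochondrial, ribosomal, immunoglobulin, haemoglobin and sex genes and unnamed models were left out of rankings. Doublets were kept; Scrublet marked 538 ff cells (4.24%) and 767 GF cells (5.09%), among them 216 (6.45%) and 57 (5.34%) of the gated cells, and their removal was an alternative. Neighbours and Leiden clusters used 2000 variable genes and 30 principal components, without the selecting genes. Leaving out endothelial and Kit/Ano1 cells was an alternative and was chosen after seeing the data. The computation was tested on simulated data. Python 3.11.15 was used with numpy 2.4.6, scipy 1.17.1, pandas 2.3.3, scanpy 1.11.5, scikit-learn 1.9.0, leidenalg 0.10.2, igraph 0.11.9 and matplotlib 3.10.9.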

Additional observations from a re-analysis of the deposited data

Results flagged for a closer look

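For 2 genes the ratio of gated over other cells was at least 2-fold in opposite directions in the libraries; the difference was not tested. Pla1a, a phospholipase, had a log2 ratio of 1.38 in ff and −1.58 in GF, with 42.0 CPM in gated and 15.6 CPM in other ff cells and 6.01 and 19.99 CPM in GF. Saa3, an acute-phase serum amyloid, had a log2 ratio of 1.4005 in ff and −1.10 in GF, with 11.2 and 3.64 CPM in ff and 2.67 and 6.86 CPM in GF.

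Collagen-positive cells with a Cxcl9 UMI, which the rule leaves out, also reached the minimum of 3 UMIs of the 4 selecting genes. They did so in 30.3% of 277 ff cells (exact 95% interval 25.0 to 36.1) and in 12.7% of 408 GF cells (9.67 to 16.4).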

How the results depend on the processing

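The share of gated cells moved with the minimum and with depth. In ff it was 27.4% as reported, 30.7% with a minimum of 2 UMIs, 22.5% with 5, 15.4% by Hapln1 and Tmigd1 alone, 9.51% at 2000 UMIs a cell and 28.8% in cells with at least 1000 genes and at most 5% mitochondrial UMIs. In GF the same settings gave 8.16%, 13.1%, 3.17%, 11.6%, 1.05% and 8.68%. With 5 CPM added in place of 1 CPM, gated cells had 76 genes higher and 229 lower in ff, 37 and 204 in GF, and 26 and 135 in both libraries, and GF over ff had 89 higher and 128 lower. In GF, 143 genes were higher with a minimum of 5 UMIs, 162 against other cells with a sum of 0 only, and 487, with 1589 lower, at 2000 UMIs. Against cells with a sum of 0, 109 genes were higher in both libraries. With at least 200 UMIs per gene, 140 were higher in GF than ff. At 2000 UMIs 29 of the 61 genes higher in both libraries and 191 of the 286 lower were called again, but only 27 of the 248 genes higher and 80 of the 289 lower in GF than ff. Of the main shares and gene counts, 80 values under an alternative stayed close, 24 moved and 0 reversed; of the named values, 258 stayed, 226 moved and 1 reversed. That was Tmigd1 in GF over ff, at −0.16 in cells taken by Hapln1 and Tmigd1. The cause was not tested for these moves. Median-ratio scaling shifted the ratios by 0.055 in ff, −0.023 in GF and −0.081 in GF over ff. Low depth limits GF most, where 1068 gated cells held 8991284 UMIs. No paired analysis was possible because each group has 1 library.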
